A study of Mus musculus with 13 samples.

Results

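Short-lived effector CD8+ T cells sorted from the spleen 7 days after infection (Tsle in the labels) were profiled 1 cell at a time. Their members were all 89 cells deposited under the day 7 Tsle heading, of 1449 cells in 13 populations. The responding cells were CD45.1+ CD8+ T cells carrying the OT-1 transgenic T cell receptor, which sees an ovalbumin peptide. A total of 5000 of them were transferred into wild-type CD45.2 C57BL/6J mice, which received 5000 CFU of ovalbumin-expressing Listeria monocytogenes by vein a day later. Comparison populations came from the same protocol: 79 Tsle cells of day 5, 62 memory precursor cells (Tmp) of day 7 and 134 day 7 cells labelled bulk, called unsorted here because they were not divided into these subsets. Effector memory cells (Tem, 136 cells, day 45) and 149 naive OT-1 cells that met no infection stand beside them where stated. All cells therefore share 1 transgenic receptor. No label used here states the gate that separated Tsle from Tmp, the number of mice or the assignment of cells to arrays. Because each population is 1 sample, populations are set side by side without a test or p-value, and differences are named by size. Shares of cells carry exact 95% binomial intervals (Clopper-Pearson), which cover counting error only. Where a count is 0, the largest share it allows is given instead as 3 cells of the total, which is below the upper end of that interval.

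During an acute infection, activated CD8+ T cells divide and split into cells that mostly die after the pathogen is cleared and cells that persist as memory. Short-lived effectors are classically marked by the inhibitory receptor KLRG1 and by low interleukin 7 receptor, and depend on the transcription factors T-bet, BLIMP-1 and ZEB2. Memory precursors keep TCF-1 (encoded by Tcf7) and the interleukin 7 receptor.

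Each cell was measured by TaqMan PCR on a microfluidic array with 95 assays for 94 genes, Il2 being assayed in duplicate. The deposited values run against a raw cycle threshold (Ct): a value of 0 stands for no detection and a higher value for more RNA. They were read as a constant, taken as 40, minus the Ct. That constant is not stated, so a difference of 1 is read as 1 PCR cycle and absolute heights are not compared between genes. A gene is called detected in a cell where its value was above 0. No read depth exists for these data. The number of genes detected per cell serves in its place, and its median was 13 in day 7 Tsle cells (range 3 to 24), 17 in day 5 Tsle, 14 in day 7 Tmp and 17 in unsorted day 7 cells.

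The 89 cells were not uniform along the deposited columns. The first 60 columns had a median R18s value (18S ribosomal RNA) of 26.1 and the last 29 had 28.1, and this single step took 49.8% of the variance of R18s. Actb moved the other way, with medians of 20.9 and 18.7, and the median number of genes detected was 15 before the step and 11 after it. What the step marks is not stated. Whether it is technical was not tested, and values are given on both sides of it for many of the results that turn on it. Day 7 Tmp had such a step too (44 columns, then 18), with R18s medians of 29.1 and 25.1, whereas the best break in day 5 Tsle took 5.58% of the variance.

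Of the 94 genes, 73 were detected in at least 1 day 7 Tsle cell and 21 in none. R18s, Gapdh and Actb were found in all 89 cells, and Ccl5 and Ptprc in over 90% of them. Klf2 and Lgals1 were among 3 genes between 50 and 90%, with 22 genes between 10 and 50%, and 43 genes below 10%. By detection, then, a small common core, which includes these 3 references, stood beside many genes seen in a minority of cells. Of the general markers, Ptprc (CD45, on all leukocytes) was detected in 81 of 89 cells. The T cell gene Thy1 was found in 35 cells and Cd8a in 33 (37.1%), so the marker of the labelled lineage was seen in a minority of cells by this assay. The markers of other T cells were at or near 0, with Cd4 and Foxp3 in 0 of 89 cells, which allows shares of up to 3.37%, and Gata3 in 3 cells. None of these 3 CD8 T cell genes was detected in 3 of the 89 cells.

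Among the markers named for these cells, Ccl5 was near universal and Lgals1 was found in most cells, while Zeb2 and Klrg1 divided the population. Ccl5, a chemokine of antigen-experienced CD8+ T cells, was detected in 87 of 89 cells (97.8%, interval 92.1 to 99.7%), with a lowest value of 9.64, a median of 16.4 and a highest of 20.0 in detected cells. Lgals1, which encodes galectin-1, was found in 76 of 89 cells (85.4%, 76.3 to 92.0%), with values from 11.8 to 19.0 and a median of 16.1. In naive cells the same transcripts were found in 1.34% and 4.70% of cells. Zeb2, a zinc finger repressor of terminal effector cells, was detected in 43 of 89 cells (48.3%, 37.6 to 59.2%), all between 13.3 and 17.6 with a median of 15.6. Zeb2 was therefore either clearly present or not detected, with nothing near the low end of the scale. Klrg1 was detected in 25 cells (28.1%, 19.1 to 38.6%) at low values of 7.02 to 14.01 with a median of 11.1. KLRG1 protein may have been part of the sort, so the Klrg1 share is not a result. Most cells of the gate gave no Klrg1 signal by this assay, and it was found in 0 of 62 day 7 Tmp cells, which allows up to 4.84%.

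**Figure D1:**
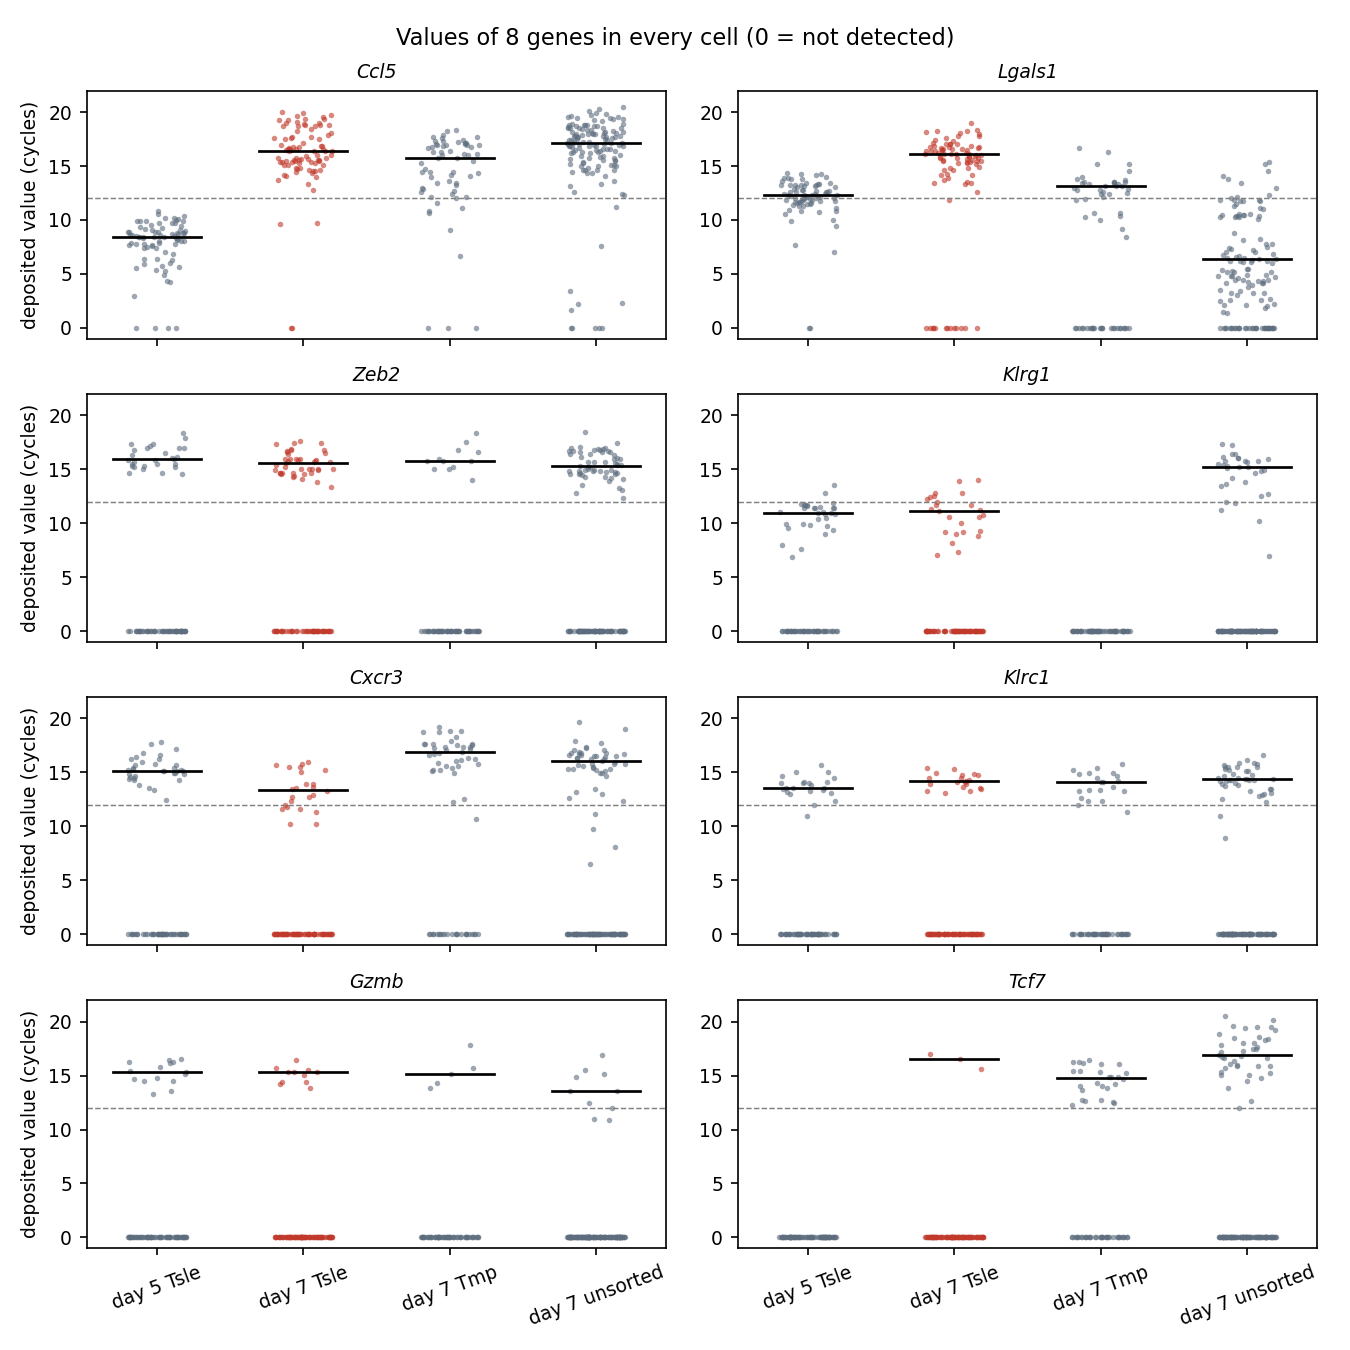
Deposited value (cycles, 0 = not detected) of 8 genes in every cell of day 5 Tsle, day 7 Tsle (red), day 7 Tmp and day 7 unsorted cells. Each point is a cell, spread sideways at random, black bars are medians of the detected cells and the dashed line is the limit of 12; Ccl5 lies above it in 85 of 89 day 7 Tsle cells and in 0 of 79 day 5 Tsle cells.

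The remaining terminal effector regulators were rare transcripts. Prdm1 (BLIMP-1) was detected in 6 of 89 cells (6.74%), with values between 12.6 and 14.4. Id2, an inhibitor of E proteins that supports effector survival, was detected in 5 cells (5.62%), all of them in the last 29 columns and all at low values of 5.27 to 9.69. Tbx21 (T-bet), Irf4 and Irf8 were each detected in 3 cells (3.37%). In these cells the mRNA of the factors that classically define the fate was thus seen far less often than Zeb2. A low share in this assay can reflect few copies per cell as well as few expressing cells, and the 2 were not separated.

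The effector and cytotoxic list had 15 genes, of which 9 were on the panel. Besides Ccl5, 6 of them were detected in day 7 Tsle cells, and 2, Xcl1 and Serpinb6b, in none. Klrc1, which encodes the inhibitory receptor NKG2A, was the most frequent of the 6, in 20 cells (22.5%, 14.3 to 32.6%) with a median value of 14.2. Gzmb (granzyme B) followed with 11 cells (12.4%, 6.33 to 21.0%), between 13.9 and 16.4. Naive cells gave Gzmb in 7.38% (3.74 to 12.8%), an interval that overlaps this one, so the Gzmb share is not read as separate from that background. Ccl4 was detected in 6 cells, Ccl3 in 5, the granzyme B inhibitor Serpinb9 in 4 and Ifng in 2 (2.25%). Neither chemokine nor Ifng was measured after a restimulation, as far as the labels state.

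Counted per cell, 50 of 89 cells (56.2%, 45.3 to 66.7%) had none of the 8 measured effector genes other than Ccl5. A single one was detected in 30 cells (33.7%) and a pair in 9 cells (10.1%), and no cell had 3 or more. In day 5 Tsle cells, 43 of 79 (54.4%) had at least 1, against 39 of 89 (43.8%, 33.3 to 54.7%) on day 7. In day 7 Tmp the share was 53.2% (40.1 to 66.0%). These shares were within 20 points of each other, and with 1 sample each no difference between the gates can be tested. Tem cells had 27.2% and naive cells 9.40%.

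Klrc1 was the effector transcript that differed by 20 points or more over the column step. It was in 19 of the first 60 cells (31.7%, 20.3 to 45.0%) and in 1 of the last 29 (3.45%, 0.0873 to 17.8%). Gzmb was in 9 and 2 cells (15.0% and 6.90%) and Ccl4 in 6 and 0, both short of that size. Ccl3 was in 3 and 2 cells, Serpinb9 in 3 and 1 and Ifng in 0 and 2, while Ccl5 was in 60 of 60 and 27 of 29 cells. Zeb2 was detected in 33 of the first 60 cells (55.0%, 41.6 to 67.9%) and 10 of the last 29 (34.5%, 17.9 to 54.3%). Klrg1 was detected in 21 (35.0%) and 4 (13.8%) and Lgals1 in 56 (93.3%) and 20 (69.0%). Ifngr1, a chain of the interferon gamma receptor, had the largest gap, with 41.7% and 10.3%. In all, 6 genes were at least 20 percentage points more frequent before the step and 0 after it. Il2rb (26.7% and 27.6%) and Cxcr3 (28.3% and 24.1%) were nearly level in share. The detected Cxcr3 values were not, with medians of 12.7 before the step and 15.5 after it. The step moved with the number of genes detected, and its part in these shares was not tested.

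**Figure D2:**
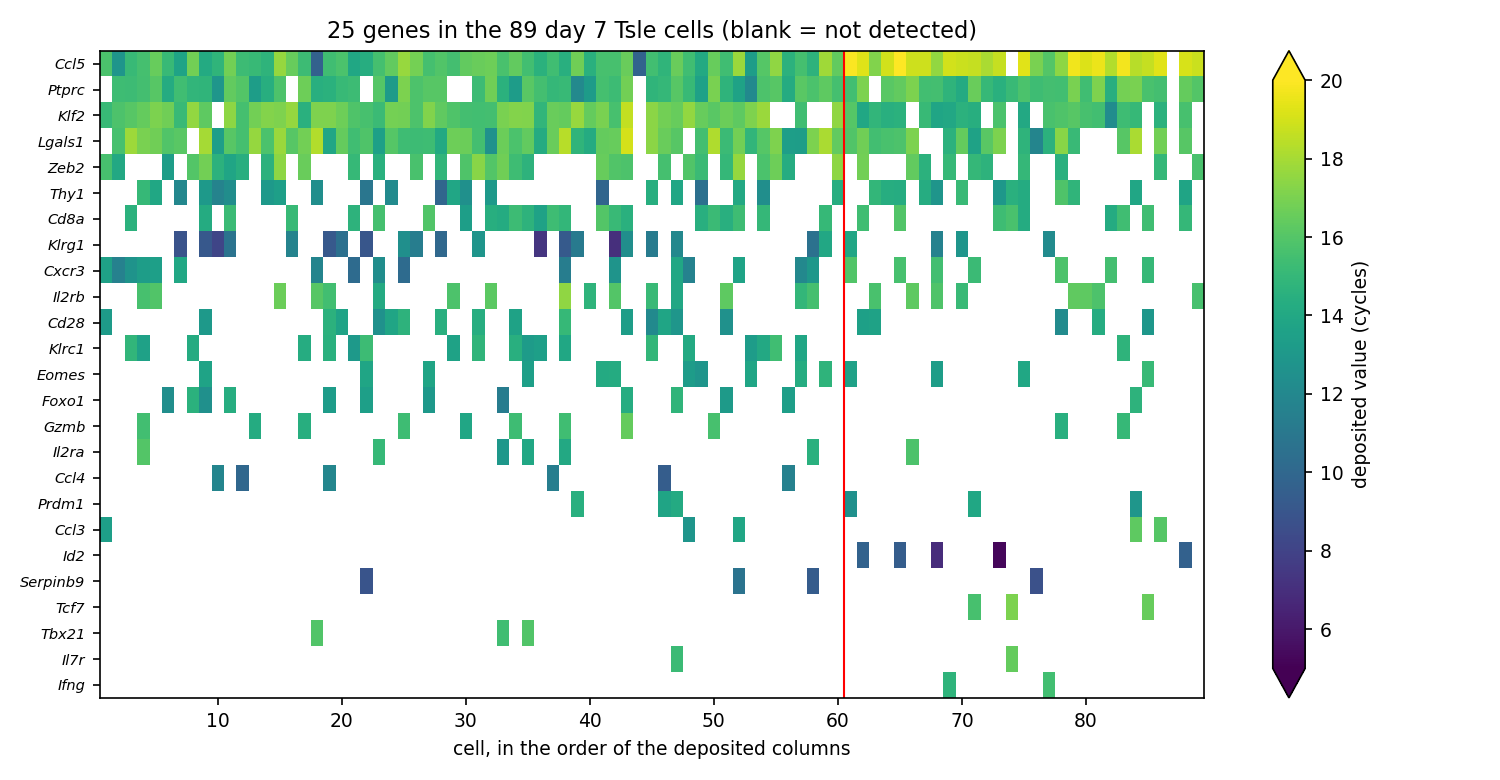
Deposited value (colour, cycles) of 25 genes (rows) in each of the 89 day 7 Tsle cells (columns, in file order), blank where not detected. The red line marks the step after column 60: Klrc1 is in 19 cells before it and 1 after it, and all 5 Id2 cells and all 3 Tcf7 cells lie after it.

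Zeb2, Klrg1 and Cxcr3 were detected in partly overlapping sets of cells, with all 3 together in 1 cell. Cxcr3, the chemokine receptor for interferon-induced ligands, is known to be kept by memory-prone effectors, and was detected in 24 of 89 cells (27.0%, 18.1 to 37.4%) at 10.2 to 15.9. The largest class was Zeb2 alone, with 27 cells (30.3%, 21.0 to 41.0%). None of the 3 genes was detected in 21 cells (23.6%). Klrg1 alone was found in 10 cells and Cxcr3 alone in 8. Zeb2 with Cxcr3 was found in 8 cells, Zeb2 with Klrg1 in 7 and Klrg1 with Cxcr3 in 7. The cells with none had a median of 11 genes detected, against 13 in the Zeb2-only cells. These counts include the 3 genes themselves, so the class with none is lower in part by construction. With Zeb2 left out of the count, the median was 13 in cells with Zeb2 and 13 in cells without it.

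Zeb2 and Klrg1 were together in fewer cells than their shares would give, by an amount short of the size rule for pairs used here, an absolute phi of 0.3. Both were detected in 8 cells, where 12.1 would follow from independent detection. Klrg1 was found in 8 of 43 Zeb2+ cells (18.6%, 8.39 to 33.4%) and in 17 of 46 Zeb2- cells (37.0%, 23.2 to 52.5%). The phi coefficient, a correlation of presence and absence over cells, was -0.20 over the 89 cells, -0.25 in the first 60 columns and -0.29 in the last 29, where only 4 cells had Klrg1. With the number of other detected genes held constant it was -0.22. Day 5 Tsle cells gave 0.09, with both genes in 13 cells, and unsorted day 7 cells gave 0.13, with both in 18. These are descriptions of cells of 1 sample, whose assignment to arrays is not stated, and the intervals above overlap.

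Zeb2 and Cxcr3 showed a weaker tendency of the same kind within the gate. Cxcr3 was detected in 9 of 43 Zeb2+ cells (20.9%) and 15 of 46 Zeb2- cells (32.6%), a phi of -0.13. Klrg1 and Cxcr3 did not share it: they were together in 8 cells, where 6.74 would follow from independence, with a phi of 0.07 in all, 0.0039 before the step and 0.24 after it. For Zeb2 and Cxcr3 in unsorted day 7 cells the contrast was wider, with 9 of 58 (15.5%) and 41 of 76 (53.9%) and a phi of -0.39. In day 7 Tmp it ran the other way, with a phi of 0.21. There 10 of the 12 Zeb2+ cells had Cxcr3, against 29 of 50 Zeb2- cells. Both genes were more frequent before the Tmp column step than after it, Zeb2 at 22.7% and 11.1% and Cxcr3 at 72.7% and 38.9%. The pair was not tested on each side of that step, so its part in this reversal cannot be told. Gzmb and Klrc1 had similar shares in cells with and without Zeb2. Gzmb was detected in 5 of 43 Zeb2+ and 6 of 46 Zeb2- cells, and Klrc1 in 9 and 11. The rarer Ccl3 was in 4 and 1 cells, Ccl4 in 4 and 2, Serpinb9 in 1 and 3 and Ifng in 1 and 1. Among the 11 Gzmb+ cells, 5 also had Klrc1, where 2.47 would follow from independence. Their phi was 0.21 in all, 0.12 before the step and 0.69 after it, where Klrc1 was in 1 cell.

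**Figure D3:**
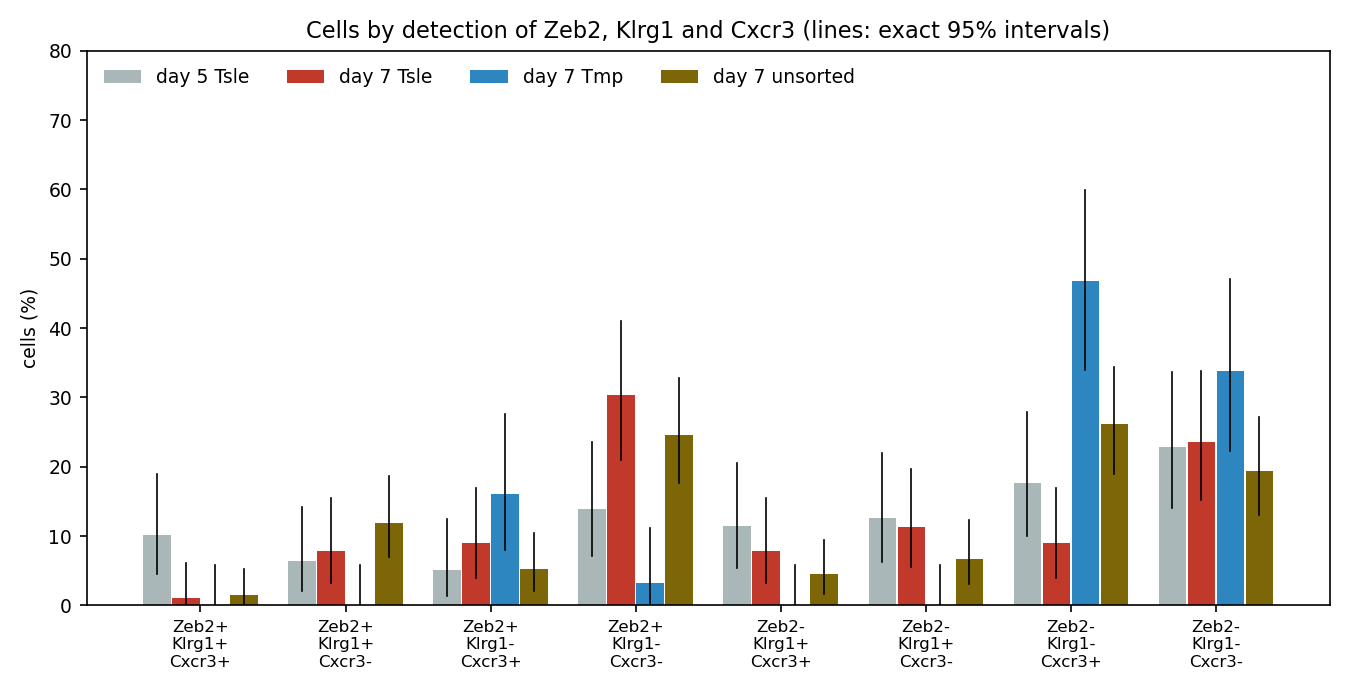
Share of cells (%) in each of the 8 combinations of Zeb2, Klrg1 and Cxcr3 detection in 4 populations, bars with exact 95% intervals (counting error only). Day 7 Tsle (red) peaks at Zeb2 alone with 30.3%, where day 7 Tmp (blue) has 3.23%; day 7 Tmp peaks at Cxcr3 alone with 46.8%, where day 7 Tsle has 8.99%.

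Across the panel, co-detection was sparse. There were 25 genes found in 10 to 90% of the cells, giving 300 pairs, with phi from -0.23 to 0.43 and a median of 0.05. Phi reached 0.3 in 3 pairs (1% of pairs) and fell to -0.3 in 0 pairs (0%). The largest was Foxo3, a forkhead factor, with Il2rb, the shared beta chain of the interleukin 2 and 15 receptors. They were detected together in 8 cells, where 2.70 would follow from independence, and 8 of the 10 Foxo3+ cells had Il2rb. Phi was 0.43 in all, 0.37 before the step and 0.55 after it, and 0.17 in day 5 Tsle cells. Foxo1 and Lef1, factors linked with naive and memory cells, shared 5 cells (phi 0.39), with 0.42 before the step and -0.04 after it, where Foxo1 was in 1 cell. Pairs just under 0.3 included Klrg1 with Lef1 (phi 0.29, 6 cells) and Zfp281 with Klf2 (0.29). All 29 cells with the zinc finger factor Zfp281 also had Klf2, a factor that drives tissue exit receptors, where 24.8 would follow from independence. Foxo1 with Psmb7, a proteasome subunit, had a phi of 0.28, and Lgals1 with Klf2 also had 0.28. Cxcr3 with Rela, the p65 subunit of NF-kappa-B, had 0.26 and Psmb7 with Tnfrsf1b, a tumour necrosis factor receptor, 0.26. Before and after the step, Klrg1 with Lef1 had 0.33 and -0.08 and Foxo1 with Psmb7 0.29 and -0.04. In the same order, Cxcr3 with Rela had 0.35 and 0.0081 and Psmb7 with Tnfrsf1b 0.36 and -0.06. Zfp281 with Klf2 had 0.27 and 0.26, and Lgals1 with Klf2 0.13 and 0.32. Of these 8 pairs, day 5 Tsle cells had none at 0.3 or above. The pairs were picked for their phi on day 7, so lower values elsewhere would follow from that choice alone. The share of all 300 pairs at 0.3 on day 5 is not given, and no difference between the days is read from this. In sparse detection such coefficients rest on few cells, and they are given as a description.

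**Figure D4:**
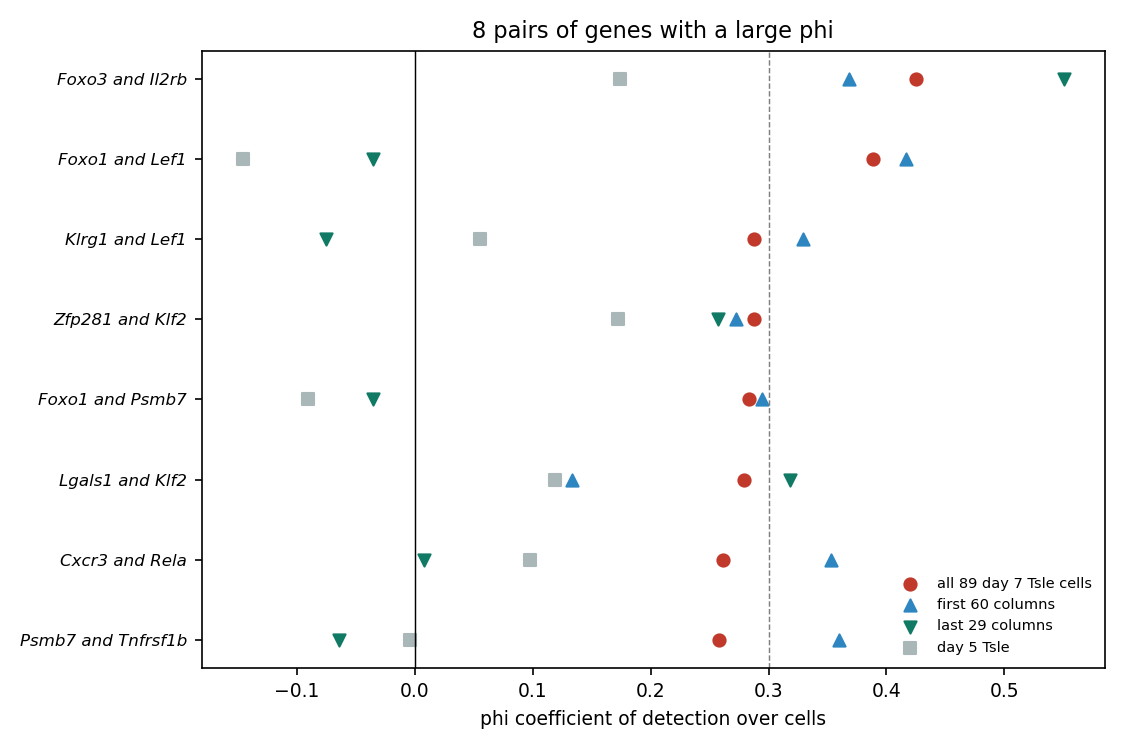
Phi coefficient of detection (x axis, no unit) for 8 gene pairs with a large absolute phi in the 89 day 7 Tsle cells (red circles), in their first 60 and last 29 columns (triangles) and in day 5 Tsle cells (squares). The dashed line is 0.3, passed by 2 of the red circles; Foxo3 with Il2rb passes it on both sides of the step.

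Between day 5 and day 7, transcripts of the interleukin 2 receptor chains and of Foxo1 were detected in fewer Tsle cells, and no gene was more frequent by the size rule. A difference of at least 20 percentage points was required. It was met by 3 of 94 genes lower on day 7 (3.19%) and by 0 of 94 higher (0%). Il2rb was detected in 24 of 89 cells (27.0%, 18.1 to 37.4%) on day 7 and in 46 of 79 (58.2%, 46.6 to 69.2%) on day 5, a difference of -31.3 points. Il2ra (CD25, the high-affinity chain) was detected in 7 of 89 (7.87%, 3.22 to 15.5%) and 29 of 79 (36.7%, 26.1 to 48.3%), a difference of -28.8 points. Foxo1, a forkhead factor that supports memory genes, was detected in 13 of 89 (14.6%, 8.01 to 23.7%) and 33 of 79 (41.8%, 30.8 to 53.4%), a difference of -27.2 points. With values past 16 (Ct 24) alone counted, Il2rb still met the rule, but Il2ra and Foxo1 did not, each at -13.9 points. Foxo1 was also short of it in the earlier columns of both populations, split evenly, at -17.5 points. Il2rb was at 26.7% and 27.6% on the 2 sides of the step and Il2ra was in 6 of 60 and 1 of 29 cells, all below the day 5 shares. Foxo1 was at 20.0% and 3.45%.

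Because day 7 cells had fewer genes detected, the comparison was repeated in cells with 12 to 18 genes detected, 60 cells on day 7 and 51 on day 5, a choice made after seeing the data. The same 3 genes were lower, with differences of -35.5 points for Il2rb, -24.7 for Il2ra and -22.5 for Foxo1. Zeb2 then passed the size rule upwards, with 33 of 60 cells (55.0%, 41.6 to 67.9%) on day 7 and 15 of 51 (29.4%, 17.5 to 43.8%) on day 5, as did Zfp281. Over all cells Zeb2 was in 48.3% and 35.4%, a difference of 12.9 points, the largest upward difference of any gene, with overlapping intervals. The difference from day 5 was 19.6 points in the first 60 columns and -0.96 points in the last 29.

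Just short of the size rule on the lower side were Ifngr1 (31.5% and 50.6% on days 7 and 5), Psmb7 (10.1% and 29.1%), Cd8a (37.1% and 55.7%), the ribosomal protein gene Rpl35 (3.37% and 21.5%), Cxcr3 (27.0% and 44.3%) and Eomes (16.9% and 34.2%), a T-box factor of effector and memory cells. In all, 50 genes were less frequent on day 7, 23 more frequent and 21 equal. Among the 10 measured naive and memory genes, 1 (Foxo1) was lower by the size rule and none higher, with a median difference of 0 points against -0.36 over all 94 genes. Of the 4 cytokine receptor genes measured, 2 (Il2ra and Il2rb) were lower by the rule, and the median difference was -24.0 points. The 9 effector genes had 0 past the rule and a median of -0.71, and the 6 terminal effector factors had 0 and 2.10.

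**Figure D5:**
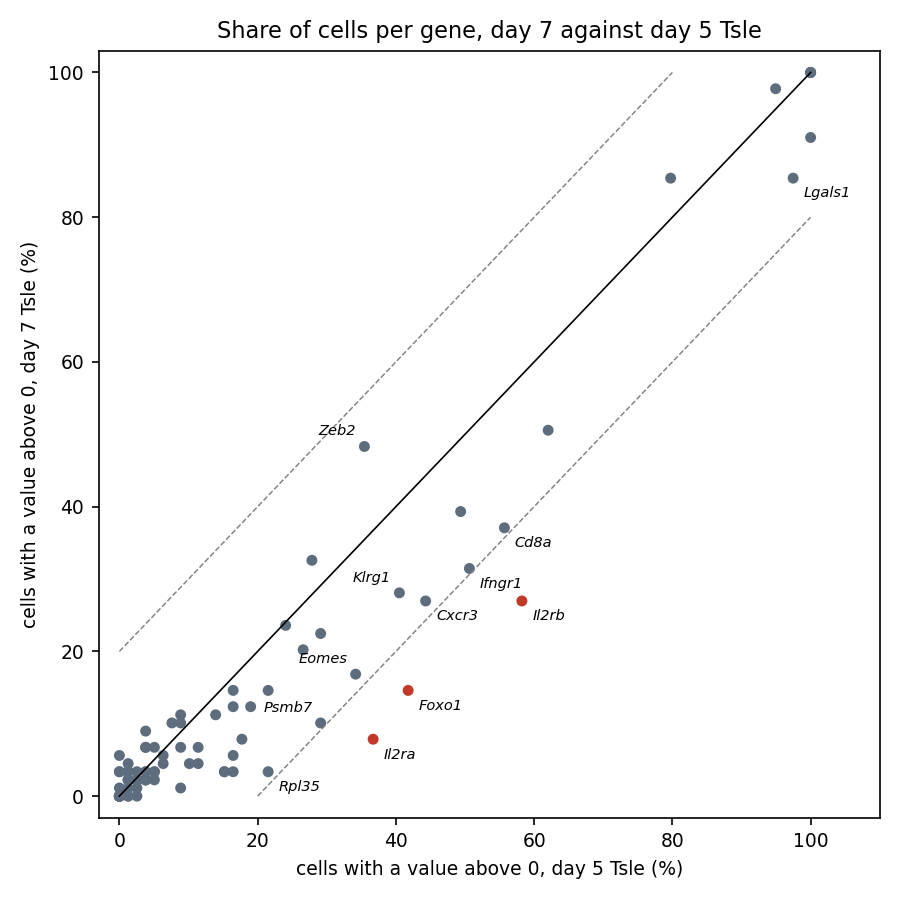
Share of cells with a value above 0 for each of the 94 genes, day 5 Tsle (x axis, %) against day 7 Tsle (y axis, %), with equality as a solid line and 20 points either side dashed. Il2rb, Il2ra and Foxo1 (red) lie below the lower dashed line, and Zeb2 is the farthest above equality.

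The amount of RNA per cell was compared as the mean over all cells of the value above 12, which is a Ct of 28 if the constant is 40, with cells at or below that limit set at 0. By this level, 2 of 94 genes were at least 1 cycle higher on day 7 (2.13%) and 8 at least 1 cycle lower (8.51%). The mean level of Ccl5 was 0 on day 5 and 4.40 cycles on day 7: in day 5 Tsle cells its values were 2.98 to 10.9, below the limit in all 79 cells, and in day 7 Tsle cells 85 of 89 passed it. The day 5 height itself varied with the population, since median detected Ccl5 values on day 5 were 8.45 in Tsle, 12.1 in Tmp and 14.9 in unsorted cells. On day 7, Ccl5 medians were 15.6 before and 18.8 after the step, both above every day 5 Tsle cell. The mean level of Lgals1 was 2.82 cycles higher on day 7, 3.40 against 0.58, although it was found in fewer cells. Its share was 12.1 points lower on day 7 over all values, and 23.5 points higher when only values past 12 were counted. Its median in unsorted day 7 cells was 6.38, against 16.1 in Tsle cells of that day. Whether the heights of Lgals1 are on 1 scale between populations was not tested.

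The 8 genes with lower levels included the references Actb (8.05 against 10.1) and R18s (14.7 against 15.7). Further differences, day 7 minus day 5, were -1.97 cycles for Ptprc, -1.56 for Il2rb, -1.23 for Foxo1, -1.20 for Il2ra and -1.03 for Cxcr3. When the detected values of each cell were centred on the mean of Actb and Gapdh, 0 genes were 1 cycle lower and 3 were higher: Ccl5 by 5.06, Lgals1 by 3.63 and Klf2 by 1.81. On that scale the difference was -0.91 for Foxo1 and -0.79 for both Il2ra and Il2rb. Gapdh itself ran from 2.08 to 21.4 over the day 7 Tsle cells, so the centred values carry part of that spread.

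Against the memory precursors of the same day, Zeb2 and Lgals1 were detected in more day 7 Tsle cells, and Tcf7 and Cxcr3 in fewer. Of 94 genes, 3 were at least 20 points higher (3.19%), these 2 and Klrg1, whose protein may have been sorted on, and 2 at least 20 points lower (2.13%). Past Ct 24, Zeb2 and Tcf7 no longer met the rule. Zeb2 was in 48.3% of Tsle and 19.4% (10.4 to 31.4%) of Tmp cells. Lgals1 was in 85.4% and 59.7% (46.4 to 71.9%). Tcf7 was in 3 of 89 Tsle cells (3.37%, 0.701 to 9.54%) and 26 of 62 Tmp cells (41.9%, 29.5 to 55.2%). Cxcr3 was in 27.0% and 62.9% (49.7 to 74.8%). Smaller differences were seen in Il7r, with 2.25% and 19.4%, and the costimulatory receptor Cd28 with 23.6% and 40.3%. Il2rb (27.0% and 41.9%), Zfp281 (32.6% and 21.0%) and Klrc1 (22.5% and 33.9%) followed. IL-7 receptor protein may have been sorted on, so Il7r is no result here.

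Both populations had a column step, and only Tcf7 passed the size rule in all 4 pairings of their stretches, with differences from -50.0 to -28.3 points. Zeb2 was higher by between 11.8 and 43.9 points, Lgals1 by between 5.33 and 43.3 and Klrg1 by between 13.8 and 35.0. Cxcr3 ranged from -48.6 to -10.6 points. On the level scale, Lgals1 was 2.69 cycles higher in Tsle and Ccl5 1.38 higher (2 of 94 genes, 2.13%), while the difference was -2.47 for Cxcr3 and -1.06 for R18s (2 of 94, 2.13%). Lgals1 was at least 1 cycle higher in all 4 pairings. Ccl5 ranged from -0.49 to 5.62 cycles and R18s from -2.78 to 2.89.

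Set against the unsorted day 7 cells, day 7 Tsle had 0 of 94 genes at least 20 points higher (0%) and 2 lower (2.13%). These were Tcf7 (3.37% against 30.6%, 22.9 to 39.1%) and Cd28 (23.6% against 44.0%, 35.5 to 52.9%). Cd28 fell short of the rule before the step, in the earlier columns, in cells with at least 10 or with 12 to 18 genes detected, and past Ct 28 or Ct 24. Tcf7 fell short of it only past Ct 24. The shares of Zeb2 (48.3% and 43.3%) and Klrg1 (28.1% and 24.6%) had overlapping intervals. Detected Klrg1 values were lower in Tsle, with a median of 11.1 against 15.2 in unsorted cells. The mean Klrg1 level above 12 was 0.076 and 0.73 cycles. Whether these heights are on 1 scale between the populations was not tested. Unsorted cells had more genes detected, and 61 genes were more frequent there against 16 in Tsle.

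The few cells with memory-type transcripts were looked at singly, having been chosen after their values were seen. All 3 Tcf7+ cells lay in the last 29 columns, at values of 15.6, 16.5 and 17.0. The cell at 15.6 also had Zeb2 (15.0), Cxcr3 (15.2), Lgals1 (13.7) and Ccl5 (18.7). The cell at 16.5 had Cxcr3 (15.1) and Ccl5 (18.7) without Zeb2 or Lgals1. The cell at 17.0 had Il7r (16.4) and no Ccl5, Lgals1, Klf2, Zeb2 or Klrg1, while Ptprc (15.1), Thy1 (14.5) and Cd8a (15.7) were present. It was 1 of only 2 cells without Ccl5. The other had 3 genes detected, the references alone, with Actb at 13.8, the lowest of the 89. The remaining Il7r+ cell had 24 genes detected, the most of any, with Klrg1 (11.99), Lgals1 (16.1) and Ccl5 (16.6). So within the Tsle gate, 1 cell of 89, with 10 genes detected, combined Tcf7 with Il7r and lacked both Ccl5 and Lgals1.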

How the data were processed

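Single sorted cells were lysed in a reverse transcription and preamplification mix with pooled TaqMan assays, amplified for 18 cycles, diluted 5-fold and read on a microfluidic array, per the labels' protocols. The deposited table holds 1 value per assay and cell on a log2 scale (PCR cycles), called Ct and non-normalized by the authors. Since 0 was by far the most common value and R18s the highest, values were read as a constant minus Ct. No source used here gives the filters on cells. Columns were assigned by heading. Of 95 rows, 93 matched RefSeq by accession, 3 symbols were updated, and both Il2 rows were joined.

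Shares, levels and phi coefficients were computed in Python 3.11.15 with numpy 2.4.6 and scipy 1.17.1, without further normalization and with no test, each population being 1 sample. A gene differed by size rule: 20 percentage points in share, 1 cycle in level, or an absolute phi of 0.3 among genes found in 10 to 90% of cells. A step was taken as the break in column order explaining most of the variance of R18s, with at least 10 columns a side and 40% explained. Scripts were tested on simulated data. Genes named were Zeb2, Klrg1, Cxcr3, Lgals1 and Ccl5, members of fixed lists, those past a size rule against day 5, the 12 largest differences from day 7 Tmp and the 10 largest phi; some of these are not reported here. Members and lists were chosen with earlier results of these data known. Alternatives were other limits, the earlier or later columns alone, stretches, cells by number of genes detected, and centring on Actb and Gapdh.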

Additional observations from a re-analysis of the deposited data

How the results depend on the processing

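Of 82 recomputed counts, 49 stayed within 1.5 times the main count and 33 did not; of 80 recomputed differences of single genes from day 5, 56 stayed within the counting interval of the day 7 share and 24 did not. None of the 3 share differences from day 5 past the size rule changed sign. Among level differences past it, Ccl5 and R18s against day 7 Tmp changed sign between pairings of stretches. R18s against day 5 changed sign after centring. The Lgals1 share difference from day 5, -12.1 points, became 23.5 past Ct 28 and 47.2 past Ct 24. Klrg1 went from -12.4 to 5.33 past Ct 28, and Zeb2 from 12.9 to -4.10 past Ct 24. Against day 5 Tsle, the share counts were 2 higher and 5 lower past Ct 28, 2 higher and 2 lower (Ptprc and Il2rb) past Ct 24, 2 higher and 6 lower in the earlier columns (the columns of each population split evenly), 7 lower in the later columns, 12 lower after the step, and 2 higher with 12 to 18 genes detected. Ccl5 and Lgals1 made up the 2 at either Ct limit. Against day 7 Tmp, 1 gene was lower past Ct 24 and 4 in the earlier columns, and 0 were higher and 1 lower in every pairing of stretches. Against unsorted cells, 2 were higher and 1 lower past Ct 28, 1 higher past Ct 24, 1 lower in cells with at least 10 genes detected, 6 lower in the later columns, 1 lower before the step and 9 lower after it. Level counts against day 5 Tsle were 1 higher and 3 lower with a limit of Ct 24, 4 higher and 24 lower without a limit, and 0 lower after centring. Against day 7 Tmp they were 0 higher and 1 lower with a limit of Ct 24, 6 higher and 13 lower without a limit, 5 lower in the earlier columns, and 1 higher and 0 lower in every pairing. Pairs at a phi of 0.3 numbered 5 past Ct 28 and 6 as the mean of both stretches. Apart from fewer cells in each part of the columns, the cause was not tested. Stretches and the 12 to 18 rule were chosen after seeing the data. No paired analysis was possible because the labels carry no replicate numbers. The number of cells, the column steps and undetected low-copy transcripts limit these shares.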

Other observations

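Compared with the Tem cells of day 45, day 7 Tsle cells had Ccl5 in a like share of cells (97.8% and 99.3%). Its mean level above the limit of 12 was 2.60 cycles higher (4.40 and 1.80). By the same measure the references Actb (8.05 and 5.10) and R18s were 2.95 and 0.84 cycles higher. The Ccl5 difference is therefore not read as particular to that gene. Tem cells also had a column step (70 columns, then 66), with R18s medians of 26.7 and 24.9. Lgals1 was in 85.4% of day 7 Tsle cells and 52.9% of Tem cells, Zeb2 in 48.3% and 24.3% and Klrg1 in 28.1% and 4.41%. Tcf7 ran the other way, with 3.37% and 47.8% (39.2 to 56.5%). Tem cells had a median of 11 genes detected against 13, so a lower share there moved with fewer genes detected, while Tcf7 was higher in spite of it. The part of that number in the shares was not tested.

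The gate difference in Cxcr3 on day 7 was not seen at that size on day 5. Tsle minus Tmp was -6.81 points on day 5 and -35.9 points on day 7, whereas for Tcf7 it was -38.9 and -38.6 points. Against the last 18 columns of day 7 Tmp, the Cxcr3 difference was -10.6 points for the first 60 Tsle columns and -14.8 for the last 29, nearer to the day 5 value. Whether the Cxcr3 values differ between the days was not tested, as each population is 1 sample. Id2 was detected in 0 of 79 day 5 Tsle cells and 58.9% of day 5 Tmp cells, a Tsle minus Tmp difference of -58.9 points. All those day 5 values lay at or below the limit of 12, so the mean level above it was 0 in both. On day 7 that difference was 4.01 points.

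Of the 7 measured genes of the activation and inhibition list, Cd28 was detected in 23.6% of day 7 Tsle cells, Tnfrsf1b in 10.1%, Cd69 in 3.37% and Tox in 2.25%. Pdcd1, Lag3 and Tnfrsf9 were detected in 0 of 89 cells, which allows up to 3.37% by the limit of 3 cells. Pdcd1 was also at 0 in the day 5 Tsle, day 7 Tmp, unsorted day 7, Tem and naive cells, so its 0 sets day 7 Tsle apart from none of them. Of the growth genes, Myc was found in 1 cell, Mtor in 3 and Hk2 in 0. Cd44 was found in 2 cells. CD44 was stained in the sort per the labels' protocols, so the low Cd44 share stands beside cells that were labelled for its protein.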
